A study of Mus musculus with 10 samples.

Results

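The genes described here are 10 early-response transcription factor genes of 3 families: Egr1, Egr2 and Egr3 (EGR), Nr4a1, Nr4a2 and Nr4a3 (NR4A), and Klf2, Klf4, Klf6 and Klf9 (KLF). They were taken by gene symbol, 1 row each, from a table of 56980 genes, and the rule uses no expression value. The table came from bulk RNA sequencing of mouse macrophages, 5 libraries of a JAML macrophage knockout (KO) and 5 of JAML wild type (WT). JAML is a junctional adhesion molecule of leukocytes. All 10 libraries came from stimulated cells: LPS, the bacterial endotoxin, was given for 8 h (100 ng/ml), and ATP for 30 min (5 mM), a pairing commonly used to prime and then trigger the inflammasome. There was no unstimulated group, so every value is a level after stimulation. The titles name a macrophage knockout and the genotype field a knockdown. The labels used here give no Cre driver, age, sex or number of animals, and do not state that each library is its own animal or culture. The p-values therefore describe only how libraries varied, which may be technical variation.

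The count columns of the KO group carry a code that matches no title, and they were taken as KO because the remaining columns name WT. Library totals were 19319512 to 22766319 counts. Jaml itself had at most 2 counts, with 8 of 10 libraries at 0, so it could not check the genotype labels. All 8 macrophage markers listed (such as Lyz2, Cd68 and Adgre1) passed the filter on low counts, with a summed level of 23230 to 25232 CPM (counts per 1000000 counts of the library, TMM-scaled) in KO and 24158 to 25691 CPM in WT. Lyz2 made up most of that sum, with means of 17531 CPM in KO and 18210 CPM in WT. In the test given below, Csf1r (log2 fold change, KO minus WT, 0.16) and Cd14 (0.13) were higher in KO. Mertk (-0.33) and Spi1 (-0.33) were lower, and 4 markers did not pass. Of all genes tested, 14.1% were higher and 15.0% lower. T cell and B cell markers were near or at 0: the summed T cell list reached at most 0.475 CPM in KO and 0.346 CPM in WT, with Cd3e at 0, and the B cell list 0.344 CPM in KO and 0.482 CPM in WT. The fibroblast or mesothelial list (7 genes) summed to 596 to 763 CPM in KO and 571 to 633 CPM in WT, the mast cell list (6 genes) to 4.27 to 5.44 CPM in KO and 7.48 to 13.5 CPM in WT, and the neutrophil list (5 genes) to 19.8 to 23.6 CPM in KO and 12.6 to 16.3 CPM in WT. Col1a1 and Col1a2 made up most of the fibroblast or mesothelial sum, and with Dcn they were the 3 genes of that list higher in KO. Pdgfra (log2 fold change -1.01) and Upk3b (-2.69) were lower, and 2 did not pass. Nearly all of the neutrophil sum was S100a8, and S100a9, Ly6g, Mpo and Elane had at most 6 counts in any library. The dendritic cell list (4 genes, Xcr1 and Cd209a at 0) summed to 0.806 to 1.15 CPM in KO and 0.589 to 1.87 CPM in WT. The part of these other cells in the results was not tested. In bulk RNA, fewer cells of a type and less RNA per cell cannot be told apart.

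EGR factors are zinc finger proteins whose genes are switched on within minutes of a stimulus, largely by serum response factor (SRF) and its ERK-activated partners at CArG boxes, and EGR2 and EGR3 share the DNA site of EGR1. NR4A proteins are orphan nuclear receptors, induced quickly through CREB sites and known in macrophages for restraining inflammatory transcription. KLF2 and KLF4 are Krüppel-like factors tied to a quiescent or alternatively activated state, KLF6 is known for promoting inflammatory gene expression in macrophages, and KLF9 is a glucocorticoid-induced factor.

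Promoter sequence is shown first for members that carry matches to these sites. RefSeq promoter windows (GRCm38.p6) were matched for 8 of 10 members, with 5 neighbouring and partly overlapping windows for Egr2. Egr1 and Egr3 were not matched. Letters searched on both strands in the 250 bases before a start were the CArG box, TGACG (the core of the CREB site), TGACGTCA (the full site, which contains TGACG), GCGNGGGCG (the EGR site) and AAAGGTCA (the NR4A site). Of 32851 windows, 1.47% held a CArG box, 17.8% held TGACG at least once and 0.688% held it at least 3 times. TGACGTCA was in 1.55% of windows, GCGNGGGCG in 4.70% and AAAGGTCA in 1.34%. GCGNGGGCG was found in the windows of Nr4a1, Nr4a2, Klf2 and Klf4. A CArG box was found in 4 of 5 Egr2 windows. TGACG was found 4 times in each window of Nr4a1, Nr4a2 and Nr4a3, 2 times in 3 of 5 Egr2 windows, once in Klf2, Klf4 and Klf9, and not in Klf6. TGACGTCA and AAAGGTCA were in none of the 12 member windows. A match is a run of letters and was not tested as a site. In the sequences below capitals mark the CArG box in Egr2 (whose TGACG matches stay in lower case) and TGACG, on either strand, in the others. They lie at chr10:67537619-67537868 (plus strand) for Egr2, chr15:101266596-101266845 (plus) for Nr4a1, chr2:57124004-57124253 (minus) for Nr4a2, chr4:48045055-48045152 (plus, the stretch outside annotated exons, with 3 of its 4 matches) for Nr4a3 and chr19:23140976-23141225 (plus) for Klf9.
Egr2: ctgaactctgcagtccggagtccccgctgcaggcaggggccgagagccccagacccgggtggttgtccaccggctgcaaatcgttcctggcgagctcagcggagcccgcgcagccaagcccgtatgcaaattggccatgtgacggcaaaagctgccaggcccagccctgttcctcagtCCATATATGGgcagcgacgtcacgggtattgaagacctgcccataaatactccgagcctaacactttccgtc
Nr4a1: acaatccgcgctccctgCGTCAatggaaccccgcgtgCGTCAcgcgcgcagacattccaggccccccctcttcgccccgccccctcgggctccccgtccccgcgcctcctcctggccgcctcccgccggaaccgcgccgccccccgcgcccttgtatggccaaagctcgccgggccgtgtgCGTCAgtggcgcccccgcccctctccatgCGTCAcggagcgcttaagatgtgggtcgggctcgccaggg
Nr4a2: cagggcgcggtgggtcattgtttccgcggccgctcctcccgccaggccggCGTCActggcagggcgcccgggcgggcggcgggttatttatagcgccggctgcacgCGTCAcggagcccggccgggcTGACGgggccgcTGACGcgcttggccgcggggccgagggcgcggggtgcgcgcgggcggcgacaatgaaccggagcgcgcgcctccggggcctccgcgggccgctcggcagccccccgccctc
Nr4a3: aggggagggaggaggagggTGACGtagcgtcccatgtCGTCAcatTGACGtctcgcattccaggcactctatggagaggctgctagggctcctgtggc
Klf9: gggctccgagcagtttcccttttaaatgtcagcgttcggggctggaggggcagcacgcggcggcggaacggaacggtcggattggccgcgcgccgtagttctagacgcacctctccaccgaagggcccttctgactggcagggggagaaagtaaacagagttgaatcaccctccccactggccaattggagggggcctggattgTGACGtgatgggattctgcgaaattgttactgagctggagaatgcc

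Of the 10 members, all passed the filter and 4 differed between genotypes at an adjusted p under 0.05 (edgeR quasi-likelihood F test, Benjamini-Hochberg over 14436 genes), against 29.1% of all genes tested. Egr1, Egr3 and Klf9 were higher in KO (3 of 10, against 14.1% of genes) and Klf6 was lower (1 of 10, against 15.0%). The same 4 genes had no overlap between KO and WT libraries, against 23.3% of genes tested. With 29.1% of genes called, a count of 4 among 10 says little about these members as a set. By family, 2 of 3 EGR genes rose, none of 3 NR4A genes passed the test, and 1 of 4 KLF genes rose and 1 fell. The median log2 fold change of the members was 0.14, beside 0.01 over all genes tested.

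**Figure D1:**
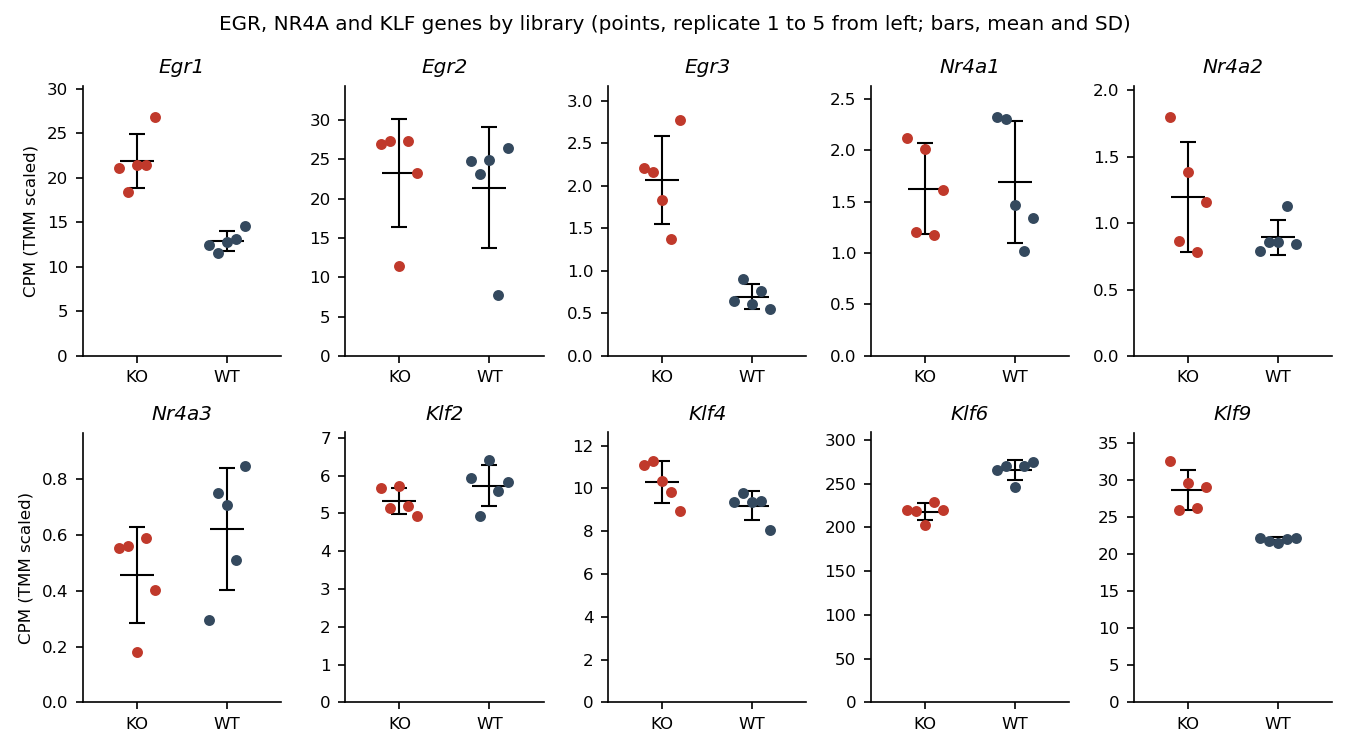
Normalized level (CPM) of each member in every library, KO left of WT. Points are libraries 1 to 5 from the left, and bars the mean and SD. Egr1, Egr3 and Klf9 lie higher in every KO library than in any WT library, Klf6 lies lower in every KO library, and Egr2 has a low library in each genotype.

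Egr1, the best known immediate early zinc finger factor, rose in KO. Its level was 21.1, 18.5, 21.4, 21.5 and 26.8 CPM in KO libraries 1 to 5, against 12.4, 11.6, 12.8, 13.1 and 14.6 CPM in WT libraries 1 to 5. The lowest KO library stood above the highest WT library. Means were 21.9 ± 3.04 CPM in KO and 12.9 ± 1.11 CPM in WT (SD, n = 5 each), a 1.69-fold higher level in KO. The log2 fold change, KO minus WT, was 0.76 ± 0.10 (SE; 95% interval 0.55 to 0.97), with an adjusted p of 0.000107 in edgeR. These values rest on 428 to 532 counts a library in KO and 217 to 294 in WT. The table lists Egr1 (ENSMUSG00000038418), a protein-coding gene, on chromosome 18 from 34992876 to 34998037. The submitters' processing notes name both mm10 and GRCm39 and tie neither to these coordinates. Egr2 is listed on chromosome 10 from 67371305 to 67378018, outside its promoter windows in GRCm38.p6 (mm10) at 67535249 to 67537979. Its listed locus therefore does not follow mm10. Nr4a3 is listed on chromosome 4 from 48045153, within its window (48045055 to 48045354).

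Egr3, an EGR factor that is itself induced by other early signals, changed by more than any other member. Its level was 2.21, 2.16, 1.84, 1.37 and 2.77 CPM in KO libraries, against 0.642, 0.910, 0.606, 0.768 and 0.547 CPM in WT libraries. All KO libraries were above all WT libraries. Means were 2.07 ± 0.515 CPM in KO and 0.695 ± 0.145 CPM in WT (SD, n = 5 each), 2.98-fold higher in KO, with a log2 fold change of 1.57 ± 0.22 (SE; 95% interval 1.09 to 2.05) and an adjusted p of 0.000209 (edgeR). Egr3 is a low gene, with 28 to 55 counts a library in KO and 11 to 17 in WT. It lies on chromosome 14 from 70314652 to 70320063 as listed.

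Egr2, known for its part in macrophage differentiation and alternative activation, lay at 2 levels within each genotype. Its level was 27.0, 27.3, 11.5, 27.4 and 23.3 CPM in KO libraries, against 24.8, 23.2, 24.9, 7.78 and 26.5 CPM in WT libraries. KO 3 was 2.29-fold below the mean of the other KO libraries, and WT 4 was 3.19-fold below the mean of the other WT libraries. The low values came from 256 counts in KO 3 and 152 in WT 4, beside 462 to 633 in the other KO libraries and 433 to 532 in the other WT libraries. With all libraries the log2 fold change was 0.12 ± 0.31 (SE; 95% interval -0.55 to 0.79; adjusted p = 0.817, edgeR), and without WT 4 alone it turned to -0.084. Without KO 3 and WT 4, a choice made after seeing the values, the means were 26.2 ± 1.98 CPM in KO and 24.8 ± 1.35 CPM in WT (SD, n = 4 each). The log2 fold change was then 0.080 with a smaller SE of 0.070 (adjusted p = 0.457, edgeR).

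A gene was counted as lying at 2 levels where its sorted log2 values in a genotype had a gap of at least 1 that took up at least 66.7% of their range. The libraries above the gap also needed a mean count of at least 10. Egr2 was the only member to meet these conditions, in both genotypes, with gaps of 1.02 in KO and 1.56 in WT on the log2 scale. Among all genes tested, 1.69% met them in KO (244 genes), 1.56% in WT (225 genes) and 0.520% in both genotypes (75 genes). The gap split 1 library from 4, as for Egr2, in 120 genes in KO and 171 in WT. It split 2 from 3 in 124 genes in KO and 54 in WT. KO 3 was the lone low library for 23 genes, Egr2 included, and WT 4 likewise for 23. Both held for Egr2 and 1 other gene, the pseudogene D630033A02Rik, also on chromosome 10. D630033A02Rik was at 0.090 CPM in KO 3, against 1.06 to 1.42 CPM in the other KO libraries, and at 0 in WT 4, against 1.06 to 1.58 CPM in the other WT libraries. Other members were not uniformly low in those libraries. In KO 3, Nr4a3 (0.179 CPM) and Klf6 (202.3 CPM) were also at their lowest KO value, Egr3 was at 1.84 CPM and Egr1 at 21.4 CPM. In WT 4, Egr3 was at 0.768 CPM, Egr1 at 13.1 CPM, Nr4a3 at 0.512 CPM and Klf6 at 270.2 CPM, none of them the lowest WT value. Among the 5 KO libraries the correlation of Egr2 was 0.99 with Nr4a3 and 0.93 with Klf6, and among the 5 WT libraries it was 0.20 with Nr4a3 and -0.23 with Klf6, given as a description in which KO 3 and WT 4 weigh heavily.

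The NR4A genes were all low, at 4 to 47 counts a library, and none passed the test. Nr4a1 (NUR77) was at 2.12, 1.21, 2.01, 1.18 and 1.61 CPM in KO libraries, against 2.32, 2.30, 1.47, 1.02 and 1.34 CPM in WT libraries. The ranges overlap almost fully, and the log2 fold change was -0.05 ± 0.26 (SE; 95% interval -0.63 to 0.52; adjusted p = 0.909, edgeR). Its sign turned with plain library totals as the scale (0.065) and without KO 2, KO 4, WT 1 or WT 2.

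Nr4a2 (NURR1) was at 1.797, 0.863, 1.39, 0.785 and 1.16 CPM in KO libraries, against 0.790, 0.856, 0.859, 1.13 and 0.846 CPM in WT libraries. Its higher KO values were those of KO 1 and KO 3, and the groups overlap. The log2 fold change was 0.42 ± 0.24 (SE; 95% interval -0.11 to 0.95; adjusted p = 0.227, edgeR), and 0.059 without KO 1 and KO 3. Msln, a mesothelial marker, was likewise at 8.99 and 11.4 CPM in KO 1 and KO 3 and at 0.302 to 1.08 CPM in the other KO libraries, against 5.03 to 9.74 CPM in WT libraries, while another mesothelial marker, Upk3b, was at 0.184 and 0.179 CPM in KO 1 and KO 3. The part of such cells in the Nr4a2 values was not tested.

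Nr4a3 (NOR1), the lowest member, was at 0.553, 0.561, 0.179, 0.589 and 0.403 CPM in KO libraries, against 0.296, 0.749, 0.707, 0.512 and 0.846 CPM in WT libraries. These are 4 to 13 counts in KO and 6 to 17 in WT. The log2 fold change was -0.44 ± 0.34 (SE; 95% interval -1.20 to 0.32; adjusted p = 0.389, edgeR). For all 3 NR4A genes the intervals leave room for changes of either sign.

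Klf6, by far the most abundant member, fell in KO. It was at 220.2, 218.6, 202.3, 228.5 and 219.3 CPM in KO libraries, against 265.7, 269.6, 246.2, 270.2 and 275.0 CPM in WT libraries. No KO library reached the lowest WT library. The level was 1.22-fold lower in KO, with a log2 fold change of -0.29 ± 0.04 (SE; 95% interval -0.38 to -0.19; adjusted p = 0.000337, edgeR).

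Klf9, a factor induced by glucocorticoids, rose in KO. It was at 32.6, 26.0, 29.6, 26.3 and 29.1 CPM in KO libraries, against 22.3, 21.8, 21.6, 22.1 and 22.2 CPM in WT libraries. The WT libraries lay within a narrow band, with an SD of 0.294 CPM around 22.0 CPM, while the KO libraries averaged 28.7 ± 2.70 CPM (SD, n = 5 each). The level was 1.31-fold higher in KO (log2 fold change 0.39 ± 0.06, SE; 95% interval 0.25 to 0.52; adjusted p = 0.00065, edgeR).

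Klf2 and Klf4, the KLF factors best known from endothelium and resting leukocytes, did not pass the test. Klf2 was at 5.67, 5.13, 5.73, 5.20 and 4.94 CPM in KO libraries, against 5.92, 4.92, 6.41, 5.58 and 5.82 CPM in WT libraries. Its log2 fold change was -0.10 ± 0.09 (SE; 95% interval -0.30 to 0.09; adjusted p = 0.430, edgeR), and 0.014 when scaled by library totals. Klf4 was at 11.1, 11.3, 10.3, 9.82 and 8.92 CPM in KO libraries, against 9.38, 9.79, 9.34, 9.42 and 8.06 CPM in WT libraries. Its log2 fold change was 0.16 ± 0.08 (SE; 95% interval -0.01 to 0.34; adjusted p = 0.160, edgeR). Scaled by library totals, Klf4 passed the test at 0.28 (adjusted p = 0.0246), a scale that moved the median of all genes to 0.12. Endothelial markers were low: 3 of 6 passed the filter, Pecam1, Tek and Tie1 had at most 7 counts in any library, and the list summed to 38.1 to 46.6 CPM in KO and 48.2 to 56.0 CPM in WT. Kdr was lower in KO (means 8.43 CPM in KO and 23.1 CPM in WT, log2 fold change -1.45). Vwf, at means of 30.8 CPM in KO and 26.8 CPM in WT (0.20), and Cdh5 (-0.03) did not pass the test.

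**Figure D2:**
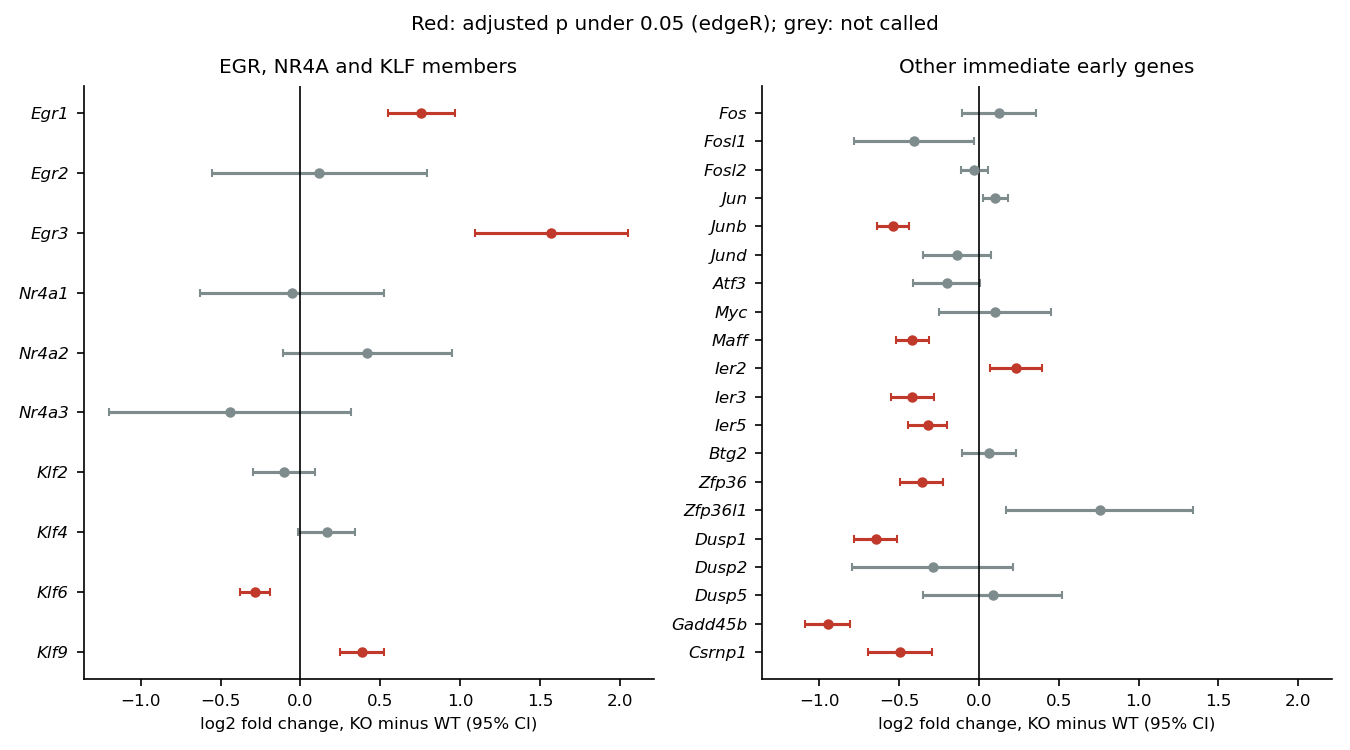
Log2 fold changes, KO minus WT, of the members with 95% intervals. Egr3 at 1.57 is the farthest from 0, Egr1, Klf9 and Klf6 also have intervals off 0, and the intervals of Egr2 and the NR4A genes are wide.

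The spread between libraries of a genotype differed widely between members. The residual SD of log2 CPM was 0.65 for Egr2, larger than in 96.1% of genes tested, and 0.53 for Nr4a3, 0.43 for Nr4a1, 0.34 for Nr4a2 and 0.31 for Egr3. It was 0.16 for Egr1, 0.12 for Klf4 and Klf2, 0.10 for Klf9 and 0.06 for Klf6, larger than in only 11.0% of genes. The variance of Nr4a3 counts was 1.45 times their mean in KO and 1.49 times in WT, and that of Nr4a1 counts 2.86 times in KO and 3.89 times in WT, where counting error alone gives a variance equal to the mean. For Egr2 the variance was 44.7 times the mean in KO and 57.2 times in WT.

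Joint movement between libraries of a genotype differed between pairs of members and went in both directions. After removing the genotype means, the 45 pairwise Pearson correlations over 10 libraries had a median of 0.02 and a range of -0.91 to 0.90, with 43 of 45 under 0.6 in size. The points share library depth and scaling, and these are descriptions, with no share over all gene pairs to set beside them. Egr1 and Klf4 had the lowest, at -0.91 (Spearman -0.79), with -0.91 among KO and -0.93 among WT libraries, and -0.83 without the 2 libraries farthest from the median of Egr1. Nr4a2 and Klf9 had the highest, at 0.90, which came from the KO libraries (0.98) and not from WT (-0.00), and fell to 0.66 without the 2 libraries farthest from the median of Nr4a2. Likeness was sought among genes at a mean log2 CPM of at least 3, 9309 for Egr1, passing over predicted genes and those without a full name. These are the highest of many correlations and were not tested. Those most like Egr1 over the 10 libraries were Kiz (r = 0.95), Snrpd1 (0.92) and Tpd52 (0.91). Among those most like Nr4a1 were Fen1 (0.96) and Mtfr1 (0.92), and those most like Klf2 were Rsph9 (0.94), Ing5 (0.92) and H2ax (0.91).

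**Figure D3:**
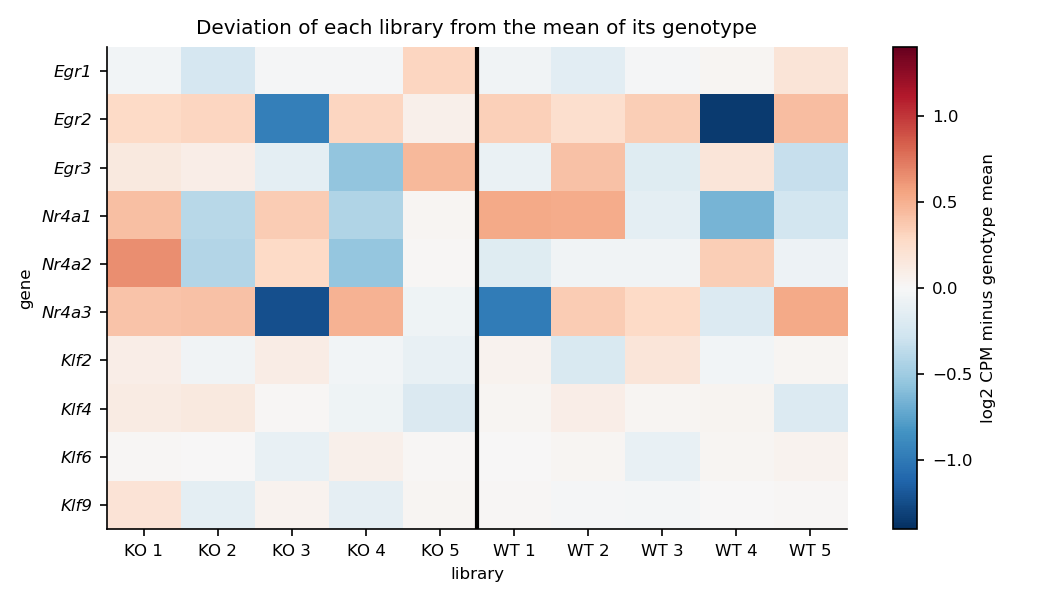
Deviation of each library from the mean of its genotype, log2 CPM, for each member (rows) and library (columns, KO left of WT). Blue cells of Egr2 stand out in KO 3 and WT 4, and no library is low or high for all members.

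Levels of different genes can be compared only per gene length, and the order depended on the length used. The lengths implied by the deposited FPKM values of WT were longer than the whole listed locus for Egr1 and Egr3, and for 8.09% of 11071 well-counted genes, so levels per kilobase of annotated exon (GENCODE vM21, matched by gene ID, a choice made after seeing this) are given with them. Per kilobase of exon, Klf6 was highest at 49.6 ± 2.17 CPM in KO and 60.4 ± 2.55 CPM in WT (SD, n = 5 each). In KO it was followed by Egr2 (6.85), Klf9 (5.96), Egr1 (4.87), Klf4 (3.38), Klf2 (2.89), Egr3 (0.470), Nr4a1 (0.464), Nr4a2 (0.295) and Nr4a3 (0.0763). Neighbours whose library ranges overlapped in KO were Egr2 with Klf9, Klf9 with Egr1, Klf4 with Klf2, Egr3 with Nr4a1, and Nr4a1 with Nr4a2. In WT, Egr1 (2.88) came below Klf2 (3.10) and Klf4 (3.02), whose ranges overlapped with their neighbour's. Egr3 (0.158) came below Nr4a2 (0.221) in WT, and their ranges overlapped, as did those of Egr3 with Nr4a3 and of Egr2 with Klf9. With the implied lengths Egr1 was at 2.91 CPM per kilobase in KO and 1.72 in WT, and Egr3 at 0.211 in KO and 0.0708 in WT. By these lengths Klf9 (5.12) came above Egr2 (4.29) in KO, with overlapping ranges, and Nr4a1 (0.429) above Egr3 without overlap.

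**Figure D4:**
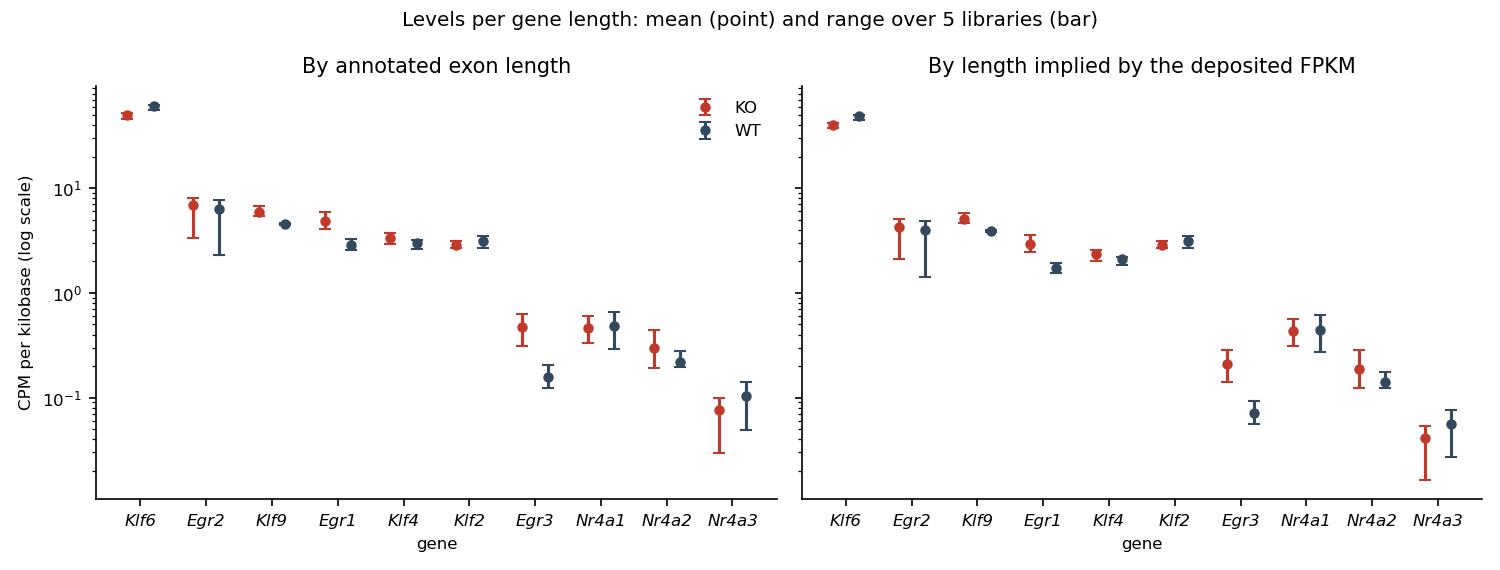
Levels per kilobase (log axis) by annotated exon length (left panel) and by the length implied by the deposited FPKM (right panel), KO left of WT. Points are means and bars the range over 5 libraries. Klf6 is highest and Nr4a3 lowest in both panels. All members but Klf2 sit lower in the right panel, Egr3 by the most.

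Ratios within a library do not depend on the scaling of libraries. These 3 ratios were chosen after the values were seen, from members already known to differ, so they are given as descriptions with no test. Counts of Egr3 were 6.41 to 11.7% of those of Egr1 in KO and 3.74 to 7.83% in WT, and the groups overlap. Counts of Klf9 were 11.5 to 14.8% of those of Klf6 in KO and 8.07 to 8.76% in WT. Counts of Egr1 were 8.45 to 12.2% of those of Klf6 in KO and 4.31 to 5.32% in WT.

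Among other immediate early genes more fell than rose, unlike Egr1 and Egr3. Of 22 listed, 20 were tested, 8 fell, 1 rose and 11 did not pass (median log2 fold change -0.25), where 15.0% of all genes tested fell and 14.1% rose. Gadd45b, a stress-induced growth arrest gene, fell to 40.1 ± 3.85 CPM in KO, against 77.3 ± 2.84 CPM in WT (SD, n = 5 each; log2 fold change -0.95). Junb, an AP-1 subunit, was at 131 ± 4.85 CPM in KO and 190 ± 10.5 CPM in WT (-0.54), Dusp1, a MAP kinase phosphatase, at 21.3 ± 1.75 CPM in KO and 33.4 ± 1.53 CPM in WT (-0.65), and Maff, a small MAF factor, at 29.7 ± 1.74 CPM in KO and 39.6 ± 0.561 CPM in WT (-0.42). The lone gene that rose, Ier2, was at 16.4 ± 1.29 CPM in KO and 13.9 ± 1.16 CPM in WT (0.24, adjusted p = 0.0330, edgeR), and it missed the threshold in 8 of 21 settings. Fos, an SRF target like Egr1, did not pass (0.13).

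Among partners and relatives, 6 of 7 were tested, none rose and Nab1 fell (median -0.08), where 14.1% of all genes tested rose and 15.0% fell. Nab1 and Nab2 are corepressors that bind EGR proteins. Nab1 was at 105 ± 8.43 CPM in KO and 126 ± 9.81 CPM in WT (log2 fold change -0.27, adjusted p = 0.00893, edgeR), a call lost with library totals and without KO 1 and KO 2. Nab2 had -0.14 (adjusted p = 0.130), and Egr4 was listed at 0 in all libraries. Of 20 SRF, ERK, MEF2 and CREB inputs, none rose and 2 fell (median -0.05), a share of fallen genes no higher than the 15.0% over all genes tested. Map2k1 (MEK1, the kinase above ERK) was at 231 ± 13.1 CPM in KO and 337 ± 5.13 CPM in WT (-0.55), and Crtc2, a CREB coactivator, at 53.6 ± 3.03 CPM in KO and 66.0 ± 1.23 CPM in WT (-0.30).

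Of 13 other KLF genes, 8 were tested, none rose and 2 fell (median -0.04). Over all genes tested, 14.1% rose and 15.0% fell. Klf3, a transcriptional repressor, was at 48.9 ± 4.79 CPM in KO and 67.1 ± 3.44 CPM in WT (-0.46), and Klf8 at 3.01 ± 0.694 CPM in KO and 4.76 ± 0.566 CPM in WT (-0.66). Of 12 glucocorticoid and circadian genes listed around Klf9, 11 were tested, 2 rose and 2 fell (median -0.08), beside the same shares. The other 7 did not pass, among them Fkbp5 (0.19), Ddit4 (-0.12) and Sgk1 (-0.08). Tsc22d3 (GILZ), a glucocorticoid-induced gene, was at 46.4 ± 3.29 CPM in KO and 33.0 ± 1.78 CPM in WT (0.49), and the clock gene Per2 also rose (0.37). The clock genes Nr1d2 (-0.53) and Per1 (-0.37) fell. Among genes known as KLF2 targets in endothelium and lymphocytes, S1pr1 and Thbd rose. S1pr1 was at 29.8 ± 2.86 CPM in KO and 18.2 ± 0.791 CPM in WT (0.71) and Thbd at 11.1 ± 1.15 CPM in KO and 6.01 ± 1.01 CPM in WT (0.89). All SDs here are over n = 5 libraries a genotype.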

How the data were processed

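The deposited table held raw counts per gene (made by the authors) and FPKM values, the authors' own normalization to gene length and library size. The submitters' processing notes list CASAVA 1.8 and TopHat2 2.0.6 among the tools. For the counting tool, annotation and strand setting, nothing was found: not given in the sources used here. FPKM columns of WT served only to derive gene lengths, and 5 FPKM columns were not used. Counts were scaled by TMM and filtered with filterByExpr (minimum count 10), which left 14436 genes with 99.87% of counts. KO was compared with WT by the quasi-likelihood F test of edgeR 4.0.16 in R 4.3.3, with Benjamini-Hochberg adjustment over all tested genes. Checked alternatives used DESeq2 1.42.0, limma 3.58.1, other scalings and filters, and left-out libraries. A floor of 3 counts equals 0.132 to 0.155 CPM. All members are named, and from each gene list up to 4 called genes with the smallest p and any that a small count needs. Members and lists were chosen with earlier results of these data known. Some genes that this rule names are not reported here.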

Additional observations from a re-analysis of the deposited data

Results flagged for a closer look

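In 4 of 20 groups (10 genes in 2 genotypes) 1 library lay far from the other 4, judged by its gap to the nearest library as a share of the whole range, above Dixon's critical value of 0.71 for 5 libraries. Chance alone gives about 1 in 20. For Egr2, KO 3 lay below the other KO libraries (0.742) and WT 4 below the other WT libraries (0.823). Nr4a2 in WT had its gap above the others at WT 4 (0.796), at 22 counts beside 16 or 17. Klf4 in WT had its gap below the others at WT 5 (0.740), at 8.06 CPM beside 9.34 to 9.79 CPM.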

How the results depend on the processing

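Egr1 (log2 fold change 0.67 to 0.87), Klf6 (-0.30 to -0.17) and Klf9 (0.30 to 0.50) kept their call in all 21 settings, and Egr3 (1.45 to 1.69) in the 20 that tested it, with the largest adjusted p 0.00673. A filter of 50 counts in 5 libraries left Egr3 and the NR4A genes untested. Klf4 passed the test with library totals (0.28). Signs turned for Egr2 without KO 1 and KO 2 (-0.052), and for Nr4a1 (0.065) and Klf2 (0.014) with library totals. Leaving out 1 library, Egr2 ranged from -0.084 (without WT 4) to 0.29 and Nr4a1 from -0.17 to 0.10 (0.04 without KO 2 or KO 4, 0.10 without WT 1, 0.09 without WT 2), and 3765 to 4085 genes were called, against 4200 with all. The cause was not tested.

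Counts in the gene lists moved as follows. Other immediate early genes that rose, 1 in the fit described, were 3 with library totals, 3 with the 50-count filter, 3 with the DESeq2 Wald test, 2 without a filter, 2 with limma-voom, 0 when KO 1 was left out with either KO 3 or KO 2, and 0 to 2 leaving out 1 library. With library totals 1 partner gene rose and 0 fell, 3 input genes, 1 other KLF gene and 4 glucocorticoid or circadian genes rose. Without KO 1 and KO 3, 2 partner genes fell and 1 input gene rose, and without KO 1 and KO 2, 0 partner genes fell.

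A replicate block by column number called 4 members, 3780 genes and 0 immediate early genes that rose. Same-numbered libraries had correlations of -0.11 to 0.18 in their deviations, and the KO numbers are tied to no label, so the numbers were not taken as pairs. The NR4A genes had 4 to 47 counts a library, and what widens their intervals was not tested.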
